A study of Drosophila melanogaster with 2 samples.

Results

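The Hippo pathway genes studied here are 10 core genes of the growth-restraining signalling pathway of Drosophila: ft, ds, app, Mer, ex, hpo, sav, wts, yki and sd, out of 18164 annotated genes on the arms examined. They were chosen by name, and every peak summit inside a gene or within 5 kb of it was collected from the 4 deposited peak lists. The data are chromatin immunoprecipitation with sequencing (ChIP-seq) of a GFP-tagged CG1663 protein, whose DNA binding preference is not described in the labels. The material was whole pupae labelled 24 hour, males and females pooled, of a stable transgenic line in which GFP sits at the C terminus of CG1663, and the precipitation used an antibody against GFP. There was 1 group of 2 biological replicates, numbered 1 and 3, both of that same line, and no second genotype or treatment. The labels name no promoter driving the tagged protein, and no untagged line was analysed here. The material held all tissues of the pupa, so a weak site and a site bound in few cells cannot be told apart. Peak lists carry no read totals, so the sequencing depth is unknown.

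In the Hippo pathway a pair of giant cadherins, Fat (ft) and Dachsous (ds), bind each other between neighbouring cells, and the palmitoyltransferase encoded by app acts against Fat. At the cell cortex Merlin (Mer) and Expanded (ex) bring together the kinase cascade, in which Hippo (hpo) with its scaffold Salvador (sav) activates the kinase Warts (wts). Warts phosphorylates the coactivator Yorkie (yki) and keeps it out of the nucleus. Unphosphorylated Yorkie joins the DNA-binding protein Scalloped (sd) and turns on growth and survival genes, ex among them. The pathway is best known for setting the size of the imaginal discs, which form the adult wings, legs and eyes during the pupal stage.

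Of the 10 genes, 8 had at least 1 summit in the IDR-thresholded list, where IDR is the irreproducible discovery rate, a measure of how alike replicates rank peaks, and 55.8% of the 13945 protein-coding genes did. That share takes genes of every length. Among protein-coding genes of 0.5 to 2 times the length of a member, it ran from 54.5% for yki to 85.3% for ds. The 2 genes without one were hpo and sav. Most summits belonged to ds, ex and wts, and most lay in introns and upstream flanks, while 6 genes also had a summit at a transcript start. The signal is the peak caller's own value, comparable within a list only, and rank 1 is the strongest of 9657 IDR-thresholded peaks. The windows below, 101 bp centred on a summit, are shown because they lie under the strongest peaks of ft, ds, app, ex and wts. The window of the weak start peak of sd is added as a GC-rich example. Windows holding untranslated bases were not shown, among them those under the strongest peaks of Mer (52.5% GC) and yki (31.7% GC). Those shown are read 5′ to 3′ on the strand of the gene, from the RefSeq Release 6 genome (dm6), and positions are counted from 1. Capitals mark matches on either strand to the GATA factor motif AGATAA, to the Suppressor of Hairless motif TGGGAA, or to the motif GAGAGAG that the protein Trithorax-like recognises.
ft, 477 bp upstream of the start, chr2L:4222223-4222323 (minus strand): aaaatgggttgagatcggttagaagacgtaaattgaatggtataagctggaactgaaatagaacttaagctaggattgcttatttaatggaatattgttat
ft, 1314 bp upstream, chr2L:4223060-4223160 (minus strand): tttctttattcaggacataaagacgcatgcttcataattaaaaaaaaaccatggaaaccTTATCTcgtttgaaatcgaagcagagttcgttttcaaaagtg
ds, 585 bp upstream, chr2L:715518-715618 (minus strand): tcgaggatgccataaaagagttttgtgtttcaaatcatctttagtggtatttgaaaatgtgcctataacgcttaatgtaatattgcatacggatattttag
ds, intron 2, chr2L:670918-671018 (minus strand): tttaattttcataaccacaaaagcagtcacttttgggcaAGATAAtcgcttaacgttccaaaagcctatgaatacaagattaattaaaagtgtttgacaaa
app, 162 bp upstream of a start, chr3L:12266953-12267053 (minus strand): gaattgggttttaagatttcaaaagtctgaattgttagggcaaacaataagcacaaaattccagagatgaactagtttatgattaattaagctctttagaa
ex, intron 3, chr2L:442058-442158 (plus strand): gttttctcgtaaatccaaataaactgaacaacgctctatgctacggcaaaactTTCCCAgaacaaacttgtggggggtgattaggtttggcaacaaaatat
ex, intron 3, chr2L:441053-441153 (plus strand): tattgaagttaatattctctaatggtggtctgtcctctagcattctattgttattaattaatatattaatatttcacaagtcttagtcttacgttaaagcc
wts, intron 1, chr3R:30803877-30803977 (minus strand): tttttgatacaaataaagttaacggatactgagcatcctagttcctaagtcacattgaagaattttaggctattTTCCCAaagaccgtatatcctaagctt
sd, 202 bp upstream of a start, chrX:15811842-15811942 (plus strand): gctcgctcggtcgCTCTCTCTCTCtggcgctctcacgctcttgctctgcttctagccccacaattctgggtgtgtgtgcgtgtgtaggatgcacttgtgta
The windows of ft, ds, app and the second one of ex were AT-rich, with a GC content of 27.7% to 32.7%, and that of sd reached 57.4%. Of these 9 windows, 2 held AGATAA, 2 held TGGGAA and 1 held GAGAGAG. The strongest windows of ft, ds and app, and the second of ex, held none of the 9 motifs searched.

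ft, a cadherin that acts as receptor at the top of the pathway, spans 4198404 to 4221796 on 2L (minus strand, 23.39 kb, 1 annotated start). A summit 477 bp upstream of its start had a signal of 2623 and rank 304. This site ranked 237 in replicate 1 (signal 1713) and 460 in replicate 3 (signal 914). A further summit 1314 bp upstream had a signal of 2307 and rank 412, with 1291 (rank 458) in replicate 1 and 1024 (rank 351) in replicate 3. Thus ft carried a pair of strong sites 837 bp apart, and each replicate put a different member of the pair first. The third ft summit lay in intron 2 of 8, 10249 bp from the start, with a signal of 736 and rank 2465. ft was the only member with all of its IDR-thresholded summits in the stronger 50% of the list.

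ds, the ligand of ft, spans 640013 to 714983 on 2L (minus strand, 74.97 kb) and held 20 of the 49 summits. None lay within 500 bp of its start. The strongest summit of the 10 genes stood just outside that window, 585 bp upstream, with a signal of 2789 and rank 258. It ranked 201 in replicate 1 (signal 1790.3) and 370 in replicate 3 (signal 1008). Farther upstream were summits at 2967 bp, with a signal of 453, and at 3678 bp, with a signal of 1277. At the start itself replicate 1 alone had a weak summit, with a signal of 32.4 and rank 20000 of 30000.

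Inside ds, 13 summits lay in introns, 9 of them in intron 2 of 11, which is 48.49 kb long. Their signals ran from 195 to 2307, and the highest, 44015 bp from the start, ranked 411. That site was strong in both replicates, at rank 382 in replicate 1 (signal 1409) and rank 474 in replicate 3 (signal 902). A neighbour 1588 bp away had a signal of 941 and rank 1814, and no other summit of the intron was above 405. Introns 6 and 10 held 2 summits each, with a highest signal of 326 in intron 6 and of 1122 in intron 10. The 4 summits downstream of ds were weak, with signals of 194 to 376. These 4 and all 13 intronic summits were nearer to the start of a noncoding gene, lncRNA:CR44988 or lncRNA:CR45369, than to that of ds. For the strongest intronic summit that start was 39600 bp away, against 44015 bp for ds. Of the 20 summits, 17 had the better rank in replicate 1 and 3 in replicate 3.

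app, whose product attaches palmitate to proteins and counters ft, spans 12206238 to 12266841 on 3L (minus strand, 60.6 kb, 4 annotated starts). The summit 162 bp upstream of its first start had a signal of 1688 and rank 774, with 1068 (rank 678) in replicate 1 and 628 (rank 943) in replicate 3. The start of CG32100 lies 525 bp from it, so the site sits between 2 genes. Another summit, 208 bp upstream of another start of app, had a signal of 314, and the farthest, 4638 bp upstream, one of 225. The latter is 134 bp from the start of Pbgs. The long introns of app held no IDR-thresholded summit, though the pooled list had 9 intronic summits there. Among 599 protein-coding genes between 0.5 and 2 times the length of app, 59.4% had as many IDR-thresholded summits or more.

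**Figure D1:**
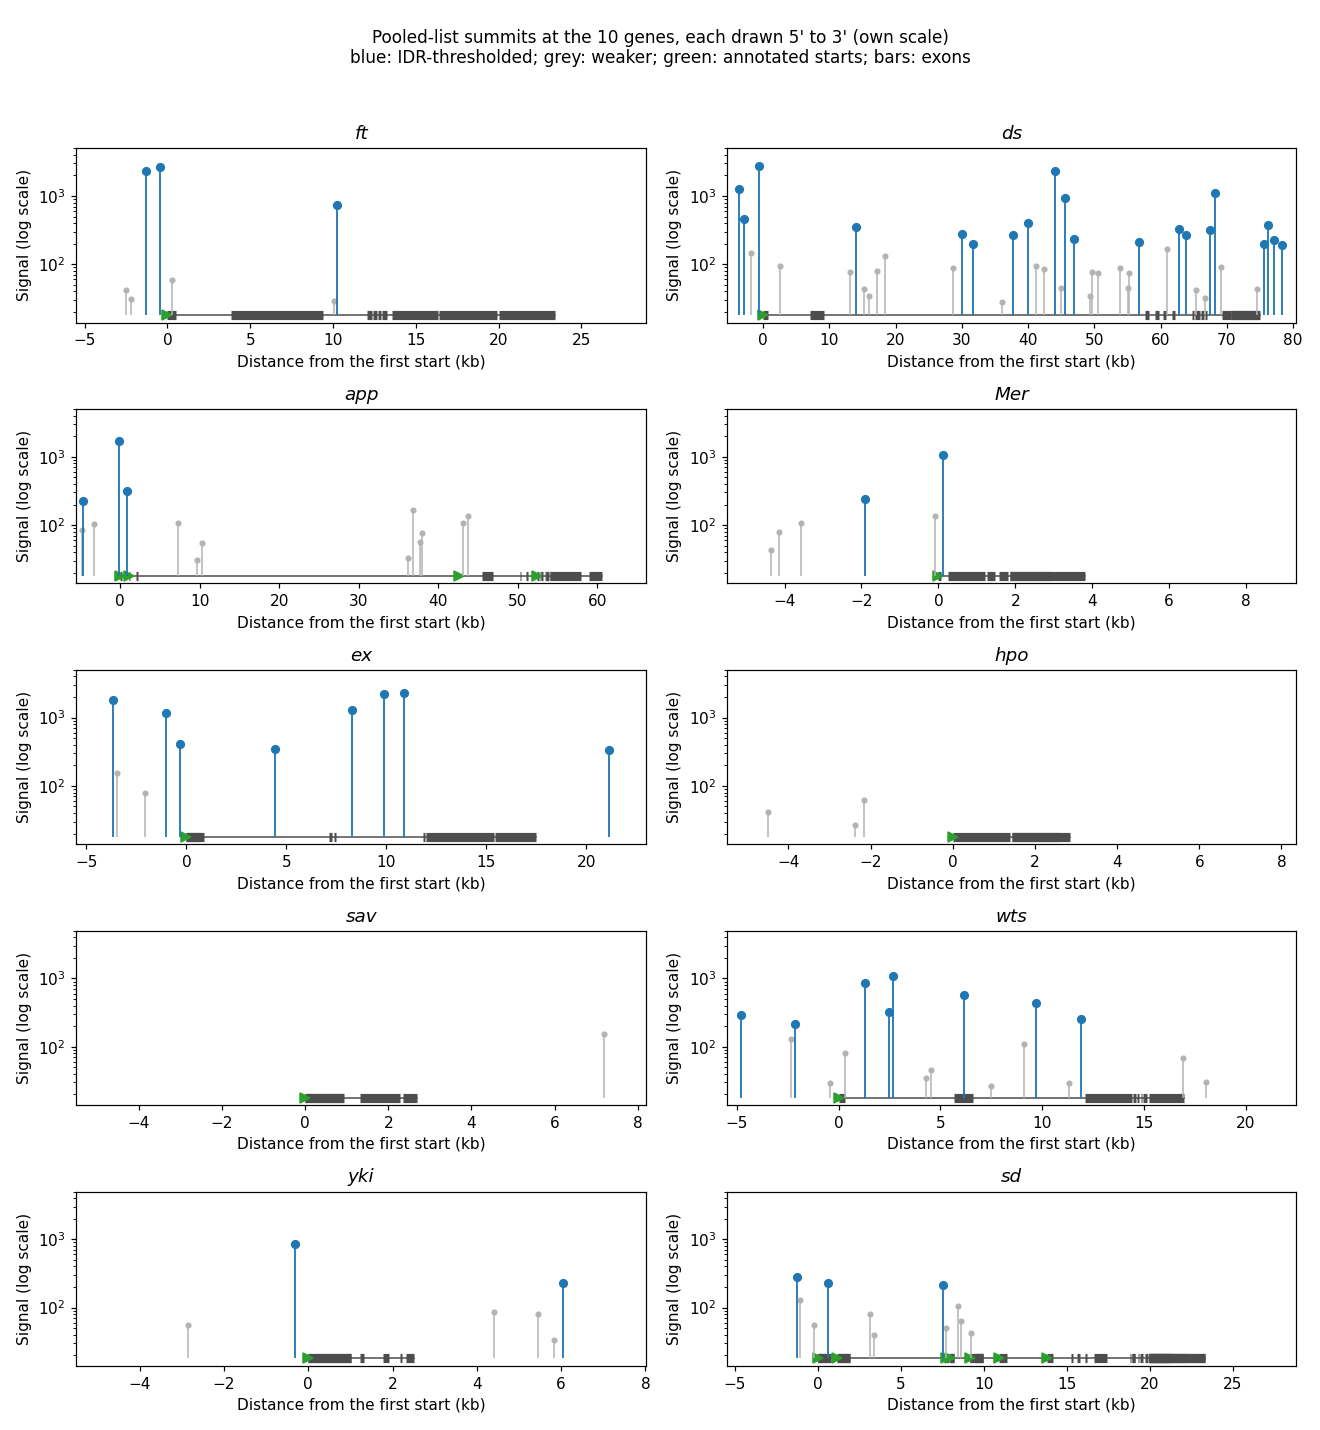
Summits of the pooled list at the 10 genes, as signal (log scale) against distance from the first annotated start (kb), each gene drawn 5′ to 3′ on its own horizontal scale. Blue marks the 49 IDR-thresholded summits, grey the weaker pooled ones, green triangles the annotated starts and dark bars the exons; ds, ex and wts carry 20, 8 and 8 blue summits, hpo and sav none.

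Mer, the fly homologue of the tumour suppressor NF2, is a short gene on X (19689697 to 19693500, minus strand, 3.8 kb). Its main summit lay 109 bp inside the transcript from the start, with a signal of 1059 and rank 1553. It ranked 1931 in replicate 1 (signal 538) and 1292 in replicate 3 (signal 500.4). The window under it had a GC content of 52.5%, well above the 31.7% median of the member summits. A weaker summit of 239 lay 1902 bp upstream, 152 bp from the start of CG14229.

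ex, a cortical protein that is also transcribed under Yorkie, spans 431227 to 448701 on 2L (plus strand, 17.48 kb) and held 8 summits, of which 3 were in the strongest 10% of the list. The summit within 500 bp of its start, 317 bp upstream, was modest, with a signal of 417 and rank 4449. The strong sites lay elsewhere. The summit 3675 bp upstream had a signal of 1800.5 (rank 687), and one 1005 bp upstream had 1161 (rank 1394). In intron 3 of 5, which is 4.35 kb long, 3 summits had signals of 1276, 2207 and 2294 (ranks 1217, 462 and 419).

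The pair of strongest ex sites lay 1005 bp apart and had almost equal ranks in the replicates. The one nearer the start ranked 463 in replicate 1 (signal 1287) and 448 in replicate 3 (signal 932). The other ranked 423 in replicate 1 (signal 1335) and 416 in replicate 3 (signal 965). The remaining intron 3 summit is 18 bp from the start of lncRNA:CR43717, a noncoding gene nested in ex. The pair was also nearer to that start, at 1564 and 2569 bp, than to the start of ex, at 9876 and 10881 bp. Intron 1 held a weaker summit of 352, again nearer to lncRNA:CR43717, 3876 bp against 4436 bp. The last summit, 341 in signal, lay downstream inside crq, 412 bp from the start of that gene. It was the only one of the 49 with no overlapping replicate 1 peak, and its signal in replicate 3 was 177.

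In the kinase core the genes differed. hpo, which encodes the upstream kinase, is 2.86 kb long on 2R (19493996 to 19496856, minus strand) and had no IDR-thresholded summit. The lowest signal in that list is 170, and the 3 pooled summits within 5 kb of hpo had signals of 27.0, 41.2 and 62.2. Replicate 1 had 1 summit there, with a signal of 31.6 at rank 20316. Replicate 3 had 6, the highest 56 bp upstream of the start with a signal of 108 and rank 7622, and neither replicate 1 nor the pooled list had a summit within 500 bp of the start. A start site at hpo was thus seen in 1 of 2 replicates. Among 6330 protein-coding genes of similar length, 44.8% also had no IDR-thresholded summit.

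sav, the scaffold for hpo and wts, is 2.7 kb long on 3R (23058609 to 23061304, minus strand) and likewise had none. The single pooled summit in its flanks had a signal of 155 and rank 10373, just below the IDR-thresholded list, and lay 25 bp from the start of p53. Its signal reached 108 in replicate 1 and 48.1 in replicate 3. At the start of sav itself replicate 3 alone had a summit, 37 bp upstream, with a signal of 68.1 and rank 11425. The start of Ublcp1 lies 152 bp from that summit. Among 6483 genes of similar length, 45.0% had no summit, so the absence at hpo and sav is common for short genes.

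wts, the kinase that acts on Yorkie, spans 30789625 to 30806619 on 3R (minus strand, 17.0 kb) and held 8 summits, none within 500 bp of its start. Intron 1 of 7 (5.32 kb) had 3, with signals of 1084, 854 and 326. The strongest, 2692 bp from the start, ranked 1508, with rank 1437 in replicate 1 (signal 675) and rank 1736 in replicate 3 (signal 405). The weakest of them shares a peak interval with the strongest, 213 bp away. A summit in a 5′ untranslated exon had a signal of 569, and intron 2 (5.55 kb) had summits of 442 and 256. The intron 2 summits were nearer to the start of mir-1013, at 5211 and 3028 bp, than to that of wts, at 9712 and 11895 bp. Both upstream summits, of 218 and 294, lie inside the neighbouring gene cindr, the first 162 bp from its start. At the start of wts the replicate lists held only weak summits, the highest 32.7 in replicate 1 (rank 19917) and 67.7 in replicate 3 (rank 11475).

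Of the nuclear effectors, yki, the coactivator, spans 24065975 to 24068485 on 2R (minus strand, 2.51 kb). The summit 323 bp upstream of its start had a signal of 863 and rank 2035, with 537 (rank 1937) in replicate 1 and 342 (rank 2112) in replicate 3. It lies 51 bp inside Gpat4, in the 5′ untranslated region of that gene, so the start it is nearest to is not that of yki. The other summit, of 232, lies downstream of yki and 2 bp from the start of RpL39, a ribosomal protein gene. It ranked 11855 in replicate 1 and 4726 in replicate 3. Neither summit of yki was nearer to its own start than to that of another gene.

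sd, which encodes the TEAD-family DNA-binding partner of Yorkie, spans 15804370 to 15827682 on X (plus strand, 23.31 kb, 7 annotated starts). Its 3 summits were weak, with signals of 283, 226 and 213, and none was in the stronger 50% of the list. The first lies 1271 bp upstream of sd and 130 bp from the start of PGRP-LE, and the second in a 5′ untranslated exon of sd. The third, 202 bp upstream of an internal start, differed between the replicates. It ranked 13982 in replicate 1 (signal 57.2) and 5092 in replicate 3 (signal 158).

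Together the 10 genes had 49 IDR-thresholded summits over 328.6 kb of gene and flank, or 1.49 per 10 kb against 0.721 per 10 kb over 133.9 Mb of the arms. Without ds the other 9 genes had 29 summits, or 1.19 per 10 kb. Without ds, ex and wts, a choice made after the counts were seen, the other 7 genes had 13 summits, or 0.687 per 10 kb, slightly below the arms. The pooled list gave 119 summits, replicate 1 gave 116 and replicate 3 gave 141, or 3.62, 3.53 and 4.29 per 10 kb against 2.24 over the arms in each list of 30000 peaks. The density of the 10 genes was higher than over the arms in all 4 lists, which share the same replicates and are not independent. In the IDR-thresholded list it was not higher without ds, ex and wts, but leaving out the densest genes must lower the value. The arms also take in sequence far from genes. By gene the density was highest at wts, 2.96 per 10 kb, ex, 2.91, and ds, 2.35, and lowest among those with a summit at app, 0.425.

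Gene length bears on such counts, so each gene was set beside protein-coding genes of 0.5 to 2 times its length. Of 475 genes like ds, 15 (3.16%) had 20 summits or more, and the median was 4. Of 1627 like ex, 4.98% had 8 or more, and of 1646 like wts, 4.74% did, with a median of 2 for both. By the number of summits ds ranked 16 of all 13945 genes, and ex and wts shared rank 191. The other 5 genes with summits stood closer to the middle. As many or more were found in 42.6% of the genes like ft, 42.5% of those like sd, 30.4% of those like Mer and 27.3% of those like yki, with app given above.

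**Figure D2:**
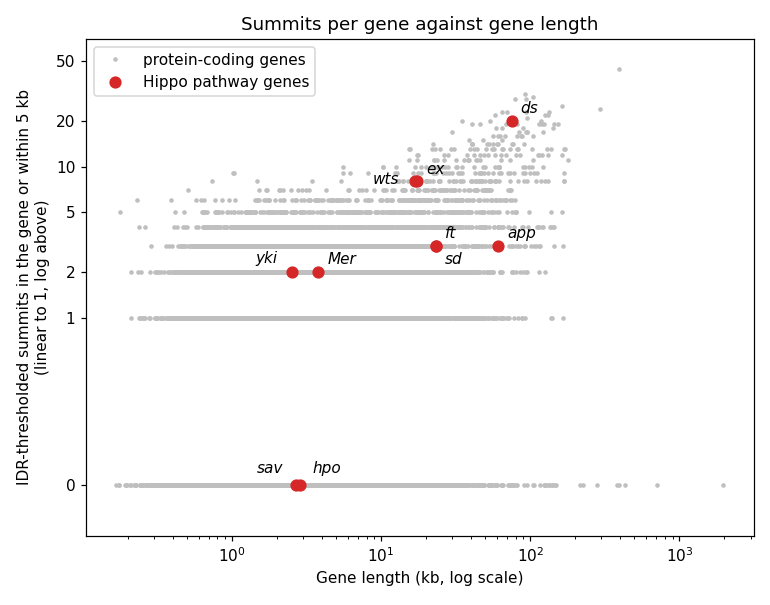
Number of IDR-thresholded summits in a gene or within 5 kb of it (linear to 1 and log above) against gene length (kb, log scale), for 13945 protein-coding genes (grey) and the 10 Hippo pathway genes (red). ds, ex and wts lie high for their length, with 20, 8 and 8 summits, though other genes of like length lie higher, and hpo and sav lie at 0.

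A summit within 500 bp of an annotated start was found at 6 of the 10 genes, namely ft, app, Mer, ex, yki and sd. The same held for 18.8% of all 18164 genes and 21.5% of protein-coding genes. In the pooled list it held for 7 members against 36.3% of protein-coding genes, in replicate 1 for 8 against 31.3% and in replicate 3 for 9 against 45.1%. The count of members was above the background share in each of these lists, which are not independent, and app and sd have several starts that can be hit. With a window of 200 bp the number fell to 2, app and Mer, against 14.1% of protein-coding genes. Counting any summit inside or within 5 kb, all 10 genes had one in the pooled list and in each replicate. The background was 68.9% in the pooled list, 68.6% in replicate 1 and 72.6% in replicate 3, over genes of every length.

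By position, 23 of the 49 summits (46.9%, exact 95% interval 32.5 to 61.7) lay in introns and 11 (22.4%, 11.8 to 36.6) in upstream flanks. Starts held 7 (14.3%, 5.94 to 27.2), downstream flanks 6 and exons 2. The intronic summits were nearly all in ds, ex and wts, and among the 13 summits of the other genes 7.69% were intronic. The summits at starts had the highest median signal, 863, against 453 upstream, 352 in introns and 229.5 downstream. The ranges overlapped widely, from 213 to 2623 at the 7 start summits and from 195 to 2307 at the 23 in introns. The exact intervals cover counting error only, and summits of a gene are not independent of each other. For 31 of the 49 summits the start of another gene was nearer than any start of the member, and 8 lay within 500 bp of one. None of these shares by position is set beside the same share over the whole list, so they describe the members alone.

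The median signal of the members' summits was 352 against 385 over the list, and 23 of 49 (46.9%) fell in the stronger 50%. Which side of the list's middle the members fell on turned with ds, which held 20 of the 49. Without ds the median was 442 and 16 of 29 (55.2%) fell in the stronger 50%, and without ds, ex and wts the median was 314. At the upper end, 8 of 49 (16.3%, exact interval 7.32 to 29.7) were in the strongest 10%. By construction 9.99% of all peaks are there. The interval takes in that share, so no difference from the list was detectable with 49 summits. Those 8 belonged to ex (3), ft (2), ds (2) and app (1). No summit of Mer, wts, yki or sd was among them.

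Both replicates had a peak overlapping 48 of the 49 (98.0%, exact 95% interval 89.1 to 99.9), and the same was true of 94.8% of all IDR-thresholded peaks. The IDR-thresholded list was derived from these same replicates, so high shares follow largely from how it was made. The matching summits lay a median of 8 bp away in replicate 1 and 11.5 bp away in replicate 3. Of the 48 matched summits, 32 had the better rank in replicate 1 and 16 in replicate 3. The share better ranked in replicate 3 was 33.3%, against 39.9% over all matched peaks, and ds alone made up 17 of the 32. The largest differences in the other direction were at weak sites of sd and yki named above.

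**Figure D3:**
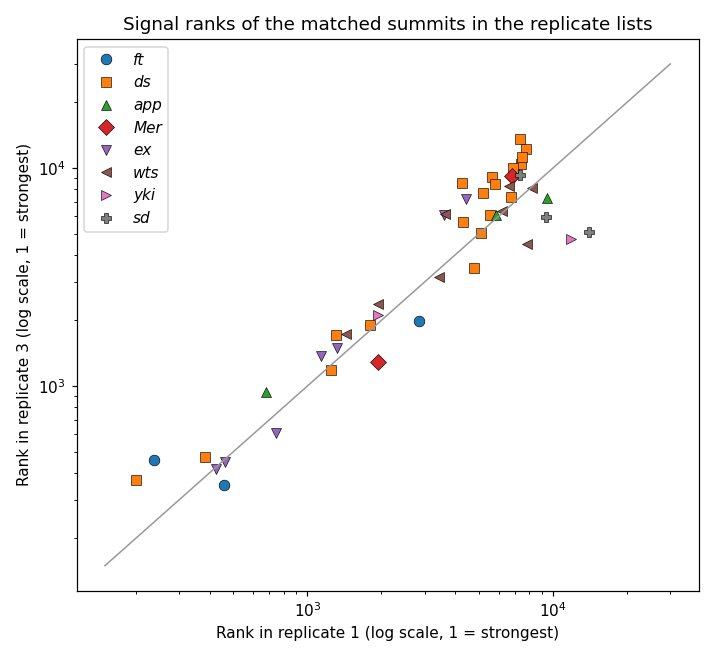
Rank by signal in replicate 3 against rank in replicate 1 (both log scales, 1 = strongest) for the 48 member summits with a peak in both, with symbols by gene and a line of equal rank. The strong sites of ft, ds, ex and app lie near the line at ranks below 1000, and weak ds sites lie above it, that is, ranked better in replicate 1.

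The GC content under the summits was low in the median, though not at every site. In windows of 101 bp the median was 31.7% (range 12.9 to 57.4) at the 49 summits and 46.5% in windows 1000 bp to each side. Over all 9657 summits the medians were 29.7% and 41.6%, so the dip at the members was like that of the list. By gene the median ran from 29.7% at app and 30.2% at ds to 39.6% at Mer. The 20 ds windows were alike, from 24.8% to 38.6%. Averaged in 25 bp steps, GC content was 32.7% at the members' summits and 31.4% over all summits.

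**Figure D4:**
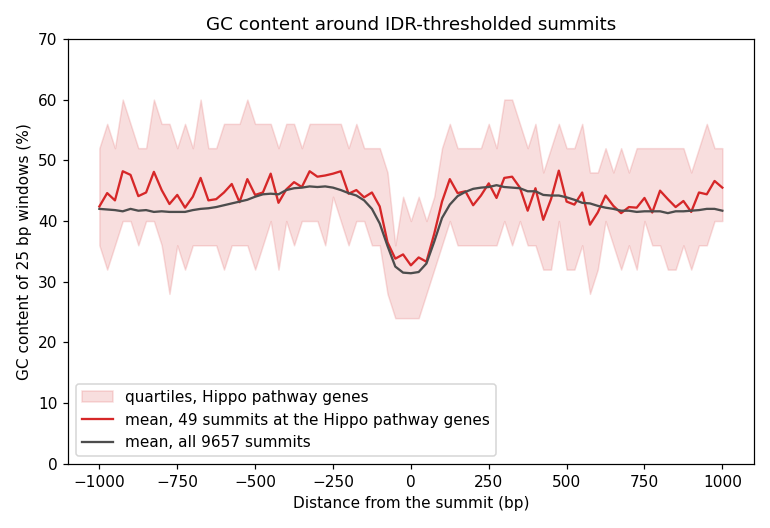
Mean GC content (%) of 25 bp windows against distance from the summit (bp) for the 49 summits at the Hippo pathway genes (red, with quartiles shaded) and all 9657 IDR-thresholded summits (dark line). Both lines fall to their lowest at the summit, 32.7% and 31.4%.

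Among 9 motifs searched as exact matches on both strands, AGATAA, the GATA factor site, was the most frequent. It was found in 8 of the 49 windows (16.3%, exact 95% interval 7.32 to 29.7), against 9.19% of all summit windows and 5.1% of the members' flanking windows 1000 bp away. In flanking windows 500 bp away the share was 8.16%, which lies inside the interval of the summit windows, while 5.1% lies below it. AGATAA is AT-rich, and the members' median GC content was 31.7% at summits against 46.5% in the flanks 1000 bp away. The effect of base composition on these shares was not tested. The 9 motifs also differ in length, so their shares are not ranked on equal terms. The 8 windows with AGATAA were in or near ft, ds, app, ex and wts, with 4 of them at ds. The one at app lies 134 bp from the start of Pbgs. TGGGAA was found in 5 (10.2%, 3.4 to 22.2) against 4.51% of all windows. Both intervals take in the shares over all summits, so no difference from the list was detectable with 49 windows. GGAATG, the site to which sd itself binds, was in 3 windows (6.12%, 1.28 to 16.9), at weak summits of ds and ex, against 3.12% of all windows and 8.16% of the members' flanks.

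The remaining motifs were rare in the members' windows. GAGAGAG was in 2, at app and sd, and TATCGATA (DRE), AGGTCA (nuclear receptors) and TGAGTG (zeste) in 1 each. TATCGATA was at the summit downstream of yki that lies 2 bp from the start of RpL39. AGGTCA was at ds. TGAGTG was at the summit upstream of wts that lies 162 bp from the start of cindr. GGTCACAC (motif 1) and CACGTG (E-box) were in none. Words of 8 bases were ranked by their ratio at the other summits to flanks, among words in at least 100 summit windows and with no 2 sharing 6 bases in a row. The top 3 within those limits, GTAATATA, TATTCTAA and TCATATAA, were in none of the 49 windows, which allows a share of up to 7.25% (upper exact 95% bound). The first of them was in 1.46% of the other summit windows and 0.369% of their flanks. With shares so low, 49 windows could not show a difference.

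Of 28 further genes of the pathway, taken from a list by role, 12 had a summit within 500 bp of a start. Inside or within 5 kb 23 had one. Among protein-coding genes of every length these shares were 21.5% and 55.8%, and hth, for one, spans 132.01 kb. Where no start of another gene was closer, 9 kept a start summit. The 28 genes held 122 IDR-thresholded summits. In the replicate 1 list 17 had a start summit, in the replicate 3 list 25, against 31.3% and 45.1%. Among 6 effectors of the cadherin branch, dachs, an unconventional myosin downstream of ft, had the highest start signal, 1079, and dco, a casein kinase that phosphorylates Fat, had 255. Fbxl7, an F-box protein that acts with ft, had a signal of 2225 at 1327 bp upstream. lft, Pez, Tao, tsh and Wbp2 had no IDR-thresholded summit within 5 kb.

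Among 13 upstream and junction proteins 6 had a start summit. crb, an apical polarity determinant, had 261 at its start and 2848 (rank 243) in an intron 1008 bp away, and the polarity kinase aPKC had 258. Rassf had 249 and Strip 218. The aPKC summit was nearer to the start of ckn, 154 bp against 169 bp. The Strip summit was nearer to the start of Gtpx, 81 bp against 238 bp. kibra, the partner of Mer and ex at the cortex, had 12 summits, none at a start and the highest 1924 in an intron. The kinase cofactor mats, like wts, had no start summit. It had 2 summits in all, the higher with a signal of 511 in an intron.

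Among 8 partners of yki and sd, 4 had a start summit. These were Hipk, a kinase that promotes Yorkie activity, with 969, Tgi, a corepressor that binds sd, with 741, the cell cycle factor E2f1 with 440 and mask with 213. hth, a homeodomain partner of Yorkie, held 22 summits over 132.01 kb, none at a start. E2f1 held 19, the highest with a signal of 2780.

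Of 10 target genes of the pathway, 6 had a start summit and all 10 had one inside or within 5 kb. Over protein-coding genes of every length these shares were 21.5% and 55.8%. ex, fj and crb are on this list and on another above. The highest start signal was 1599 at CycE, which drives entry into S phase. The bantam microRNA gene mir-ban, annotated over 0.08 kb only, had 526 at 446 bp downstream of its annotated start. That summit lies past the annotated gene, and the start of another gene is nearer, 395 bp away. It is counted among the 6 all the same. ex had 417 and crb 261. dally had 251 and Diap1, the inhibitor of apoptosis, 208 at the start and 10 summits in all. Myc had no start summit, but its intron held the strongest site of the targets, 3391 at rank 156.

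**Figure D5:**
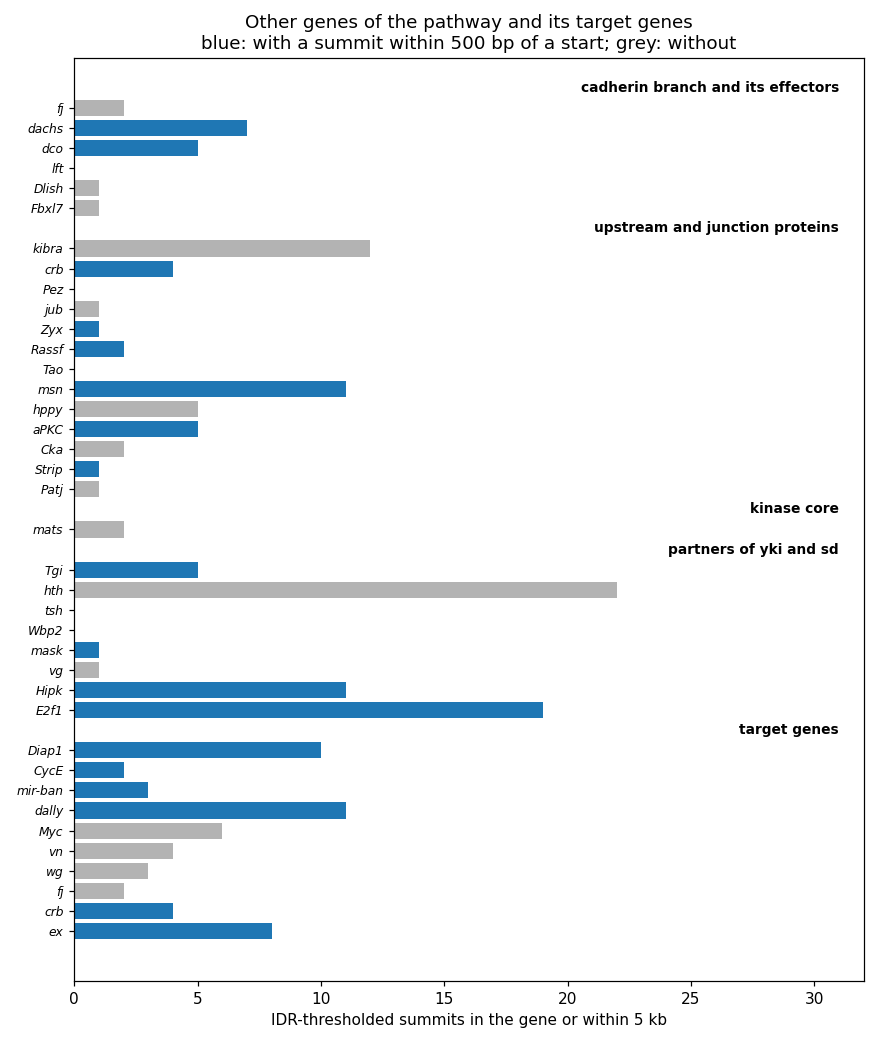
Number of IDR-thresholded summits inside or within 5 kb of each further pathway gene and each target gene, grouped by role. Blue bars have a summit within 500 bp of a start and grey bars have none; hth has the most, 22, and E2f1 has 19.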

How the data were processed

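Anti-GFP ChIP-seq of CG1663-GFP was represented by 4 deposited peak lists in narrowPeak format: replicate 1, replicate 3, both pooled, and an IDR-thresholded list. Per the files deposited with each sample, peaks were called against a control on assembly dm6. What aligner, peak caller, control material and IDR cutoff were used is not given in the sources used here. The signal (column 7) deposited by the authors is the caller's own value. The deposited q-value column holds −log10 values, which are saturated, so peaks were ranked by signal. Column 10, deposited by the authors, was added to the start of a peak to place its summit. The IDR-thresholded list was identical to the top 9657 of the pooled list by signal, so its values are pooled values. The called lists held exactly 30000 peaks each.

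Gene models were Ensembl release 115 (BDGP6.54), without transposable elements, and the coordinates of all 10 genes were the same in RefSeq. Each summit was classed as start (within 500 bp of any start of the gene), exon, intron or flank (up to 5 kb). Replicate peaks matched when they overlapped by at least 1 bp. Motifs were searched in 101 bp windows and in windows 1000 bp to each side. Shares have exact (Clopper-Pearson) 95% intervals. Steps were tested on simulated data. Python 3.11.15, pandas 2.3.3, numpy 2.4.6 and scipy 1.17.1 were used. The members, lists and motifs were chosen with earlier results of these data known, so no p-value is given. All 10 members were named, and the weaker of the 20 ds summits were given as ranges and counts. Of the other genes, up to 4 per role with a start summit were named by signal, and Fbxl7, lft, Pez, Tao, kibra, mats, hth, Wbp2, tsh, dally, Diap1 and Myc were named after their values were seen where that rule did not take them. Alternatives were the peak list, the flank, the start window, the overlap rule, the motif window and leaving out ds, or ds, ex and wts, both added after seeing the data.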

Additional observations from a re-analysis of the deposited data

How the results depend on the processing

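Counts and densities were judged against 1.5 times the main value, shares against their exact interval, and the median rank percentile against the SD between the values of the replicate lists, 0.915 (n = 2), a narrow limit. Under alternative settings 44 values stayed within these limits and 23 did not. Counts followed the list. The 49 summits at the 10 genes became 23 in the stronger 50% of the peaks (0.7 per 10 kb), 119 in the pooled list (3.62 per 10 kb), 28 in the gene bodies alone (82.1% in introns), 29 without ds and 13 without ds, ex and wts (0.687 per 10 kb, 7.69% in introns). Leaving out a replicate, with as many of the strongest peaks of the other, gave 49 and 50. The median rank percentile, 54.6, became 30.3 in the stronger 50%, 44 in the pooled list, 47.3 with a flank of 2 kb, 43.5 without ds and 60.2 without ds, ex and wts, and ranged from 50.9 to 52.2 with 1 replicate left out. Each is a percentile of the list used, so the side of that list's middle, 50, changed in the stronger 50%, in the pooled list, with the flank of 2 kb and without ds. The 6 members with a start summit became 2 with a window of 200 bp, and ranged from 5 to 7 over the other alternative settings. With replicate 1 left out hpo joined the 6, and with replicate 3 left out sd dropped out. Both of these settings took only as many of the strongest peaks of the other replicate. Without yki, whose summit is nearer to Gpat4, 5 of the 6 remained. The full replicate lists gave higher counts, 8 members in replicate 1, sd among them, and 9 in replicate 3. The 12 further genes with a start summit became 4 in the stronger 50%, 20 in the pooled list and 7 with a window of 200 bp. Where no start of another gene was closer, 9 remained. With an overlap of 50% of both peaks 71.4% of the members' summits matched in both replicates, against 73.8% of all. No GGAATG window remained in the stronger 50% (0%). Replicate numbers pair nothing here, since there is 1 group. Unknown depth, 2 replicates and no untagged line limit every value.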
